A study of Mus musculus with 8 samples.

Results

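The Notch pathway, from its ligands to the *Hes* and *Hey* genes, was measured in mouse neural progenitor (NP) cultures with and without *Sox3*. The 38 genes were taken by name, as the listed Notch genes whose symbol stands in the probe annotation; the rule uses no measured value, but the list was drawn up with earlier results of these data known. All 38 had a transcript cluster (the set of probes that reads a gene on this array) with that symbol alone, among 23410 named transcript clusters of 35556 on the array. They comprised 6 ligands, 4 receptors, 14 modifiers that process, sort or degrade these proteins and 4 members of the nuclear complex. The other 10, *Nrarp* and the *Hes* and *Hey* genes, are called effectors below. Whether each of them is a Notch target in these cells was not tested.

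NP cells were made from R1 embryonic stem (ES) cells in N2B27, a serum-free medium that turns ES cells into neural cells, and RNA was taken on Day 4. The 4 control cultures, titled Conditional and labelled *Sox3* positive, came from a line with a conditional *Sox3* allele, and the 4 *Sox3* null cultures from a line in which a GFP reporter had been knocked in at *Sox3*. Replicates 1 and 2 of each genotype came from the first differentiation series (batch 1), replicates 3 and 4 from the second (batch 2), and each culture had its own Affymetrix Mouse Gene 1.0 ST array. The genotypes are different ES cell lines, so a difference between lines and the loss of *Sox3* cannot be told apart, and how many clones stand behind each line was not stated.

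Notch is a receptor that is activated by ligands on a neighbouring cell. The bound receptor is cut by an ADAM protease and then by gamma-secretase, and its freed intracellular part joins the DNA-binding protein RBPJ and Mastermind co-activators to switch on *Hes* and *Hey* genes, whose repressor proteins hold back proneural genes. In the developing nervous system this keeps a share of the cells as progenitors while their ligand-bearing neighbours become neurons.

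On the log2 scale of the deposited signals, *Sox3* itself was 9.92, 9.84, 9.73 and 9.76 in control cultures 1 to 4 and 8.39, 8.56, 8.67 and 8.37 in null cultures 1 to 4. All null arrays thus lay below all control arrays, with a log2 difference of −1.31 (SE 0.08, adjusted p = 3.87e-05, limma). The remaining signal in the null arrays stayed above the median of the named transcript clusters, which was 7.63 to 7.70 on the 8 arrays. According to the paper, GFP took the place of the only *Sox3* exon in this line, and its mutant samples gave no detectable *Sox3* expression. What the remaining array signal comes from was not tested. All 10 markers of neural progenitors on a chosen list were above the median signal of control cells, as were 3 of 9 markers of mesoderm and endoderm, 3 of 8 of fibroblasts and 0 of 8 of endothelial cells. Of 9 markers of pluripotent cells, 8 were above it.

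Promoter sequences are shown for *Dll1* and *Nrarp*, which rose in *Sox3* null cells (below), and for *Hes5*, a direct Notch target that did not pass the test. Each is the 250 bases before an annotated start of the gene (RefSeq, GRCm38.p6), 5′ to 3′ in the direction of transcription, and *Dll1* has a pair of annotated starts. Capitals mark the core of the RBPJ site (TGGGAA or its complement TTCCCA), a Sox core (ACAAT or ATTGT) and the octamer bound by POU factors (ATGCAAAT or ATTTGCAT); no marked site overlaps another.
*Dll1* chr17:15375824-15376073 (minus strand): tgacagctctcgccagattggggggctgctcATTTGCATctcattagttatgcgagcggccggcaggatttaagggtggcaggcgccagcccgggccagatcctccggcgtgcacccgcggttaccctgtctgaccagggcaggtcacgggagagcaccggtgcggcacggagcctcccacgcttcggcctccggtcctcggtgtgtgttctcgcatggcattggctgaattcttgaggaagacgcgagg
*Dll1* chr17:15376933-15377182 (minus strand): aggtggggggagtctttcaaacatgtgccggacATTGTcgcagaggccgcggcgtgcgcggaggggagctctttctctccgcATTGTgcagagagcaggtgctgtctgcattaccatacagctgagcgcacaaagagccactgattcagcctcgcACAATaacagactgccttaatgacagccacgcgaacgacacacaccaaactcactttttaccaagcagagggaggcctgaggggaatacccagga
*Nrarp* chr2:25180508-25180757 (plus strand): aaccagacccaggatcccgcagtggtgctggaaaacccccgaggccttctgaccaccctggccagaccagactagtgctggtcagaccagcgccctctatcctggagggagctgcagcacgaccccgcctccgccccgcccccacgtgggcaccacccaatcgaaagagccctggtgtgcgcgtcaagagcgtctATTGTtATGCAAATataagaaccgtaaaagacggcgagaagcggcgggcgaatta
*Hes5* chr4:154960673-154960922 (plus strand): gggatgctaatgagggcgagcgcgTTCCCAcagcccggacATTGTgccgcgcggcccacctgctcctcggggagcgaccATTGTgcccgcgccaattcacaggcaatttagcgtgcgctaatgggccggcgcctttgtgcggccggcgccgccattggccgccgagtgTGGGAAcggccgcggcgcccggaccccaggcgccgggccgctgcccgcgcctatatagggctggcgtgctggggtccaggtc

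The *Nrarp* promoter held a Sox core at 55 to 51 bases and an octamer at 49 to 42 bases before the start. An octamer lay 219 to 212 bases before the first *Dll1* start listed, and Sox cores lay 217 to 213, 168 to 164 and 95 to 91 bases before the other. The *Hes5* promoter held RBPJ cores at 226 to 221 and 82 to 77 bases and Sox cores at 210 to 206 and 171 to 167 bases. These letters are common: of 32851 mouse promoters, 21.6% held the RBPJ core and 27.7% the Sox core on either strand. Of the 36 promoters of the 29 Notch genes that the table held, 10 (27.8%) had the RBPJ core, those of *Dtx2*, *Hes5*, *Hes7*, *Hey2*, *Lfng*, *Maml2*, *Maml3*, *Psen2* and *Rbpj*. The Sox core stood in 8 (22.2%), those of *Adam17*, *Dll1*, *Hes5*, *Jag1*, *Maml2*, *Notch4*, *Nrarp* and *Numb*. The octamer, searched for only after the *Nrarp* sequence had been read, stood in 1.6% of all promoters and in 2 of the 36, those of *Dll1* and *Nrarp*. No promoter sequence was held for *Dtx4*, which also rose in null cells, nor for *Mfng*, *Mib1*, *Dtx3*, *Hes1*, *Hes2*, *Hes3*, *Hey1* and *Heyl*. These genes were not searched. A match is a run of letters and not a measured binding site.

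The comparison of *Sox3* null with control cultures asked which Notch genes depend on *Sox3* in NP cells. In *Sox3* null cells 3 of the 38 Notch genes rose (7.89%, where 1.15% of all named transcript clusters rose) and 0 fell (0.393% of all fell). The genes that rose were the ligand *Dll1*, the ubiquitin ligase *Dtx4* and the Notch target *Nrarp*, by 1.22-fold to 1.31-fold. The test was limma with terms for genotype and batch, and a gene passed where its p, adjusted over all named transcript clusters, was 0.05 or lower. With a fold of at least 1.4 required too, 0 of the 38 genes passed, where 0.431% of all did in either direction. At an unadjusted p under 0.05 stood 12 of the 38, 10 higher (26.3%, where 7.31% of all were) and 2 lower in the null cells (5.26%, where 5.8% of all were). Across all 38 the median log2 fold change was 0.08 and 24 (63.2%) lay above 0, where the median of all named transcript clusters was −0.0001 and 49.95% lay above 0. Of the 38 genes, 31 lay above the median signal of control cells, where 11705 of the 23410 named transcript clusters did. The shares over all, here and below, thus include more dim transcript clusters than the Notch genes do. Shares among brighter ones alone were not counted, so whether the excess is particular to Notch genes was not tested. In these bulk cultures, fewer cells of a type and less RNA per cell cannot be told apart.

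**Figure D1:**
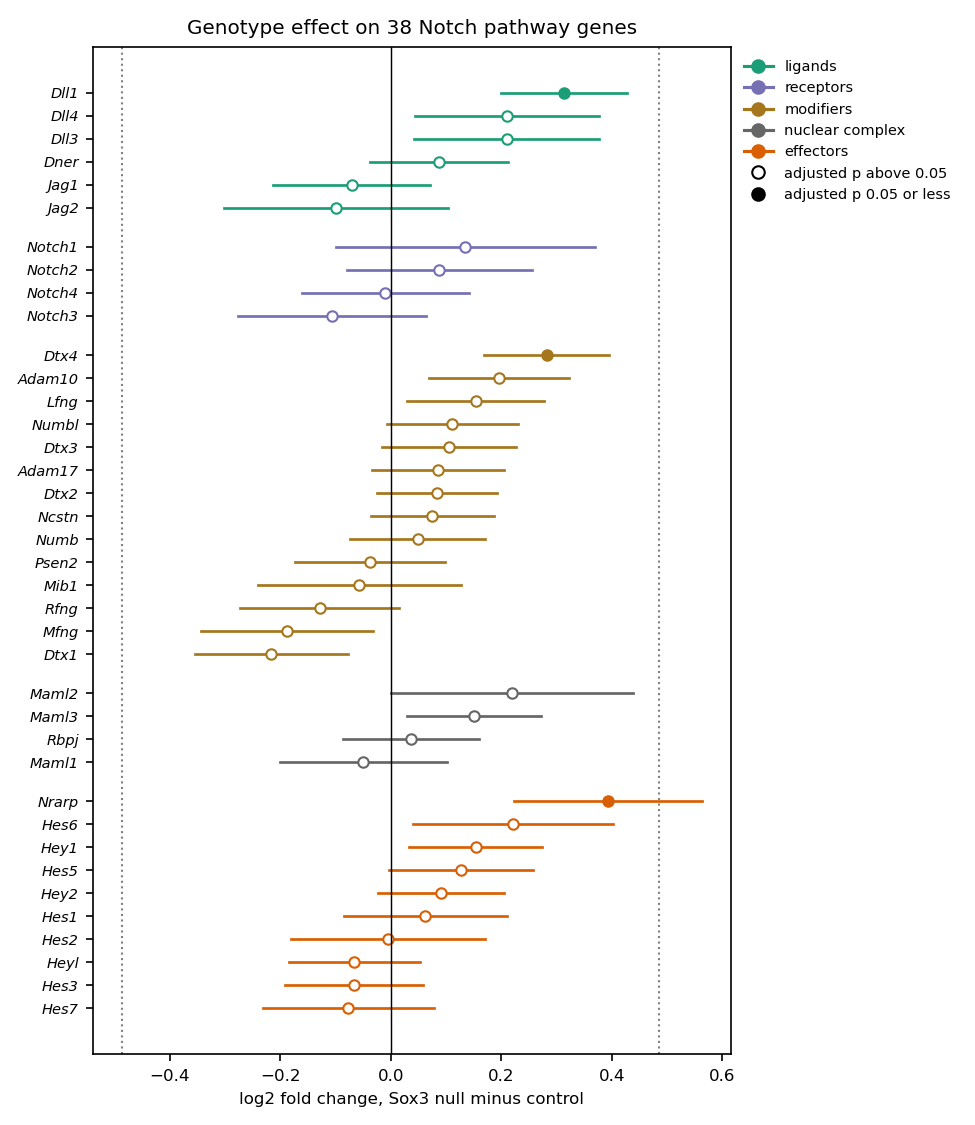
Log2 fold change (*Sox3* null minus control) of each of the 38 Notch genes, with its 95% interval, grouped by role and ordered by size within a role; the dotted lines mark a fold of 1.4. Filled points, *Dll1*, *Dtx4* and *Nrarp*, passed the test, and the intervals of 37 of the 38 genes lie between the dotted lines, all but that of *Nrarp*.

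Of the ligands, *Dll1*, which activates Notch on neighbouring cells and marks progenitors about to become neurons, was 9.79, 9.81, 9.49 and 9.57 in control cultures 1 to 4 and 10.07, 10.05, 9.84 and 9.95 in null cultures 1 to 4. Every null array was above every control array, and within each batch the gap was wider than the spread of the replicates. The log2 fold change was 0.31 (SE 0.05, adjusted p = 0.0130, limma), from a mean of 9.66 ± 0.16 (SD, n = 4) to 9.98 ± 0.11 (SD, n = 4).

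*Dll4*, a ligand best known from blood vessels, was 7.09, 7.03, 6.79 and 7.14 in control and 7.14, 7.26, 7.25 and 7.24 in null cultures. The null arrays again lay above all control arrays, the highest control and the lowest null almost touching, and the signal was below the median of named transcript clusters. Its log2 fold change of 0.21 (SE 0.08) did not pass (adjusted p = 0.253, limma), and it was 0.13 without control replicate 3. *Dll3*, which resembles the other ligands but does not activate Notch on neighbouring cells, had 0.21 (adjusted p = 0.255), and 0.14 without null replicate 3. The Jagged ligands *Jag1* and *Jag2* had −0.07 and −0.10, and *Dner*, a neuronal membrane protein described as an atypical ligand, had 0.09. Of the 6 ligands, 4 had a value above 0 and the median was 0.15.

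None of the 4 receptors passed the test for genotype, and at an unadjusted p under 0.05 stood 0 of them. *Notch1*, the receptor most studied in neural progenitors, differed by 0.13 on the log2 scale, null minus control (95% interval −0.10 to 0.37), and by 0.07 to 0.23 with single arrays left out. *Notch2* had 0.09 (−0.08 to 0.26), *Notch3* −0.11 (−0.28 to 0.06) and *Notch4*, known from endothelium, −0.01 (−0.16 to 0.14). These intervals leave out a change of 1.4-fold in either direction and still allow smaller ones. Another 6 transcript clusters shared by *Notch4* and *Sympk* had differences of 0.002 to 0.055 and were not used.

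Among the 14 modifiers, *Dtx4*, a ubiquitin ligase of the Deltex family that acts on Notch, was 11.49, 11.42, 11.09 and 11.22 in control cultures and 11.67, 11.74, 11.45 and 11.48 in null cultures. In each batch the null pair lay above the control pair, while over all 8 arrays the null arrays of batch 2 lay just under the highest control array, of batch 1. The log2 fold change was 0.28 (SE 0.05, adjusted p = 0.0211, limma), from 11.30 ± 0.18 to 11.59 ± 0.14 (SD, n = 4 each).

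*Dtx1*, another Deltex ligase and in some cells itself a Notch target, lay the other way. It was 8.57, 8.41, 8.39 and 8.35 in control and 8.11, 8.27, 8.21 and 8.28 in null cultures, so that every null array was below every control array. Its log2 fold change of −0.22 (SE 0.06, unadjusted p = 0.00574) did not pass over all genes (adjusted p = 0.150, limma). *Dtx2* and *Dtx3* had 0.08 and 0.10.

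*Adam10*, the protease that makes the first cut in a ligand-bound receptor, was 9.96, 10.05, 10.25 and 10.10 in control and 10.31, 10.22, 10.28 and 10.34 in null cultures. Within each batch the null arrays were the higher ones, but control replicate 3 lay above null replicate 2. This is a log2 fold change of 0.20 (SE 0.06, adjusted p = 0.153, limma). The related protease *Adam17* had 0.09, and the gamma-secretase subunits *Ncstn* and *Psen2* had 0.08 and −0.04.

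The Fringe glycosyltransferases, which change the choice of ligand by adding sugar to the receptor, differed in the sign of their log2 fold change. This was 0.15 for *Lfng* (adjusted p = 0.262), −0.19 for *Mfng* (adjusted p = 0.279) and −0.13 for *Rfng* (adjusted p = 0.444, limma), and none passed. *Numb* and *Numbl*, adaptors that restrain Notch in the cell that inherits them, had 0.05 and 0.11, and *Mib1*, the ligase that lets ligands be taken up, had −0.06.

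In the nuclear complex, *Rbpj*, the DNA-binding member, differed by 0.04 on the log2 scale (95% interval −0.09 to 0.16). Of the Mastermind co-activators, *Maml1* had −0.05, *Maml2* 0.22 and *Maml3* 0.15 (adjusted p = 0.835, 0.382 and 0.263 in that order, limma). The interval of *Maml2*, −0.0004 to 0.44, was the widest of the 4 genes, and its value was 0.13 without control replicate 3.

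*Nrarp* had the largest fold change of the 38 genes. It encodes a small ankyrin repeat protein, made in response to Notch, that limits the Notch signal. It was 9.60, 9.53, 9.21 and 9.26 in control and 9.92, 9.77, 9.59 and 9.89 in null cultures. Again the null pair was above the control pair in each batch, and over all arrays null replicate 3 and control replicate 1 nearly coincided. The log2 fold change was 0.39 (SE 0.08, 95% interval 0.22 to 0.56, adjusted p = 0.0313, limma), from 9.40 ± 0.19 to 9.79 ± 0.15 (SD, n = 4 each).

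The *Hes* and *Hey* genes did not pass. *Hes5*, the main Notch target in neural progenitors, was 10.60, 10.49, 10.34 and 10.22 in control and 10.65, 10.71, 10.49 and 10.30 in null cultures. The genotypes overlapped, and so did the batches, though the difference between batches was the larger one (−0.27, batch 2 minus batch 1). The log2 fold change of *Hes5* was 0.13 (95% interval −0.003 to 0.26, adjusted p = 0.394, limma), and that of *Hes1*, a Notch target in many tissues, 0.06 (−0.08 to 0.21, adjusted p = 0.773).

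*Hey1*, which also represses neuronal differentiation, was 8.80, 8.81, 8.68 and 8.67 in control and 8.99, 8.86, 8.80 and 8.94 in null cultures. The null arrays were higher within each batch, and only null replicate 3 fell inside the control range. Its log2 fold change was 0.15 (SE 0.05, adjusted p = 0.249, limma). *Hes6*, which opposes *Hes1* and favours neuronal differentiation, had 0.22 (SE 0.08, adjusted p = 0.268), and 0.15 without control replicate 4. The remaining values were 0.09 for *Hey2*, −0.07 for *Heyl*, −0.005 for *Hes2*, −0.07 for *Hes3* and −0.08 for *Hes7*, the *Hes* gene of the segmentation clock. Of the 10 effectors, 6 had a value above 0 and the median was 0.08.

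**Figure D2:**
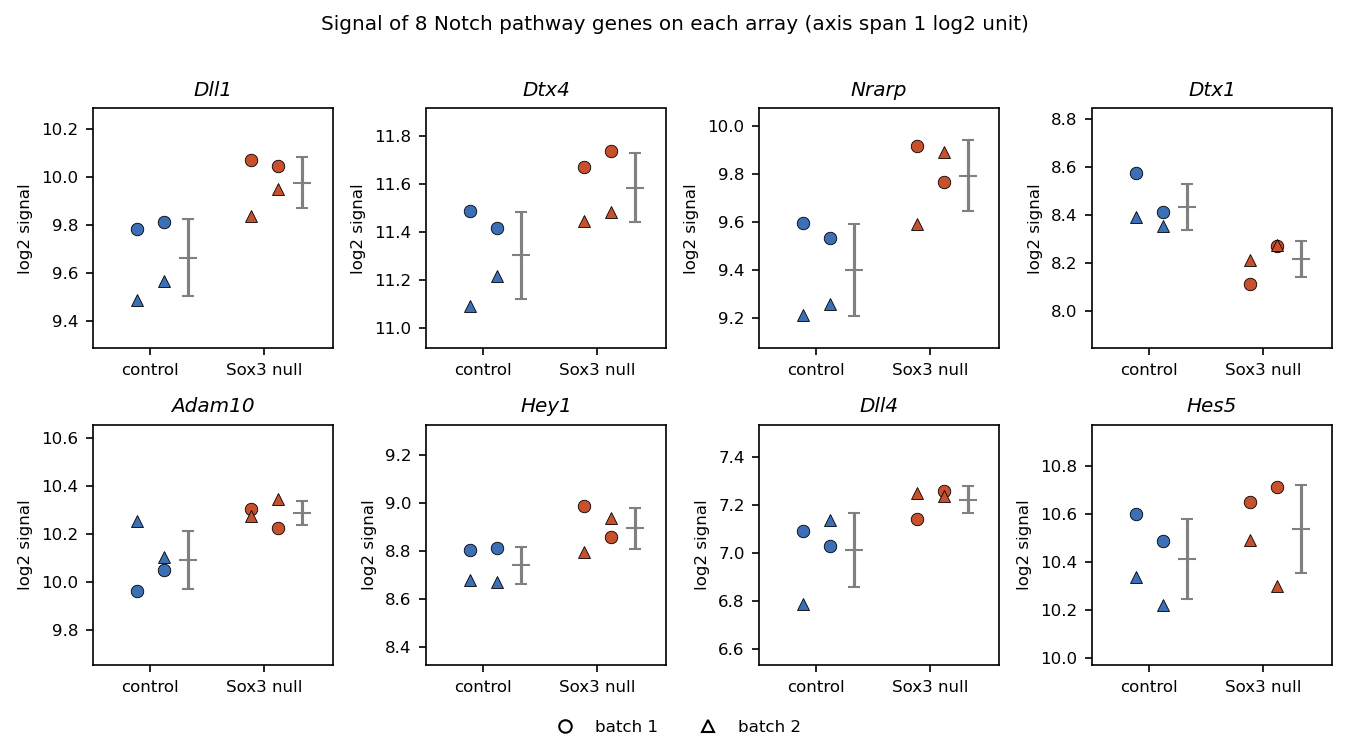
Log2 signal of 8 Notch genes on each of the 8 arrays, circles for batch 1 and triangles for batch 2, with the mean and SD of 4 arrays in grey; each vertical axis spans 1 log2 unit and starts elsewhere, so levels are not comparable between panels. *Dll1* and *Dll4* lie higher and *Dtx1* lower on every null array than on every control array, and for *Hes5* the genotypes overlap. Of the genes named in the last sentence, only *Dll1* passed the test for genotype.

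Over the 35 genes that did not pass, log2 fold changes ran from −0.22 to 0.22 and their 95% intervals from −0.35 to 0.44, inside a 1.4-fold change (0.49 on the log2 scale). The calls of the 3 genes that rose were not stable to leaving out arrays, while each value stayed above 0.25. Without control replicate 1, 0 of the 3 passed (adjusted p = 0.0503 for *Dll1*, 0.0522 for *Dtx4* and 0.0589 for *Nrarp*, limma). *Dtx4* was above 0.05 without control replicate 2 or 3 or null replicate 2, 3 or 4 too (adjusted p of 0.0535 to 0.0760), and *Nrarp* without control replicate 2, 3 or 4 or null replicate 1 (0.0725 to 0.107). With batch left out of the fit, as a random block, or with all transcript clusters of the array tested, 0 of the 3 passed, as in either batch alone.

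Within the batches, the genotype was compared by 2 arrays against 2. In batch 1 the log2 fold change was 0.26 for *Dll1*, 0.25 for *Dtx4* and 0.28 for *Nrarp*, and in batch 2 it was 0.37, 0.31 and 0.51 in that order. Of the 38 genes, 33 (86.8%) had the same sign in both batches, where 61.5% of all named transcript clusters did. Null arrays lay above control arrays in each batch for 8 genes, *Dll1*, *Dll4*, *Lfng*, *Adam10*, *Dtx4*, *Maml3*, *Hey1* and *Nrarp* (21.1%, where 7.01% of all did so). They lay below them in each batch for 2, *Mfng* and *Dtx1* (5.26%, where 5.04% of all did so). Over all 8 arrays, every null array lay above every control array for 2 of the 38 genes and below for 1. Of the 23410 named transcript clusters, 565 lay above and 513 below in this way.

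The genotype by batch term passed for 0 of the 38 genes, with 2 at an unadjusted p under 0.05 (5.26%, where 3.05% of all were), and the lowest adjusted p among them was 1.00 (limma). These were *Dll3*, with 0.05 in batch 1 and 0.37 in batch 2 (unadjusted p = 0.0294), and *Hes6*, with 0.06 and 0.38 (unadjusted p = 0.0479). *Dll3* was 8.16, 8.08, 7.77 and 7.80 in control and 8.24, 8.11, 8.25 and 8.05 in null cultures, and *Hes6* 9.49, 9.37, 9.21 and 8.99 in control and 9.42, 9.56, 9.55 and 9.41 in null cultures. In both genes the batch 2 control arrays were the lowest of the 8.

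**Figure D3:**
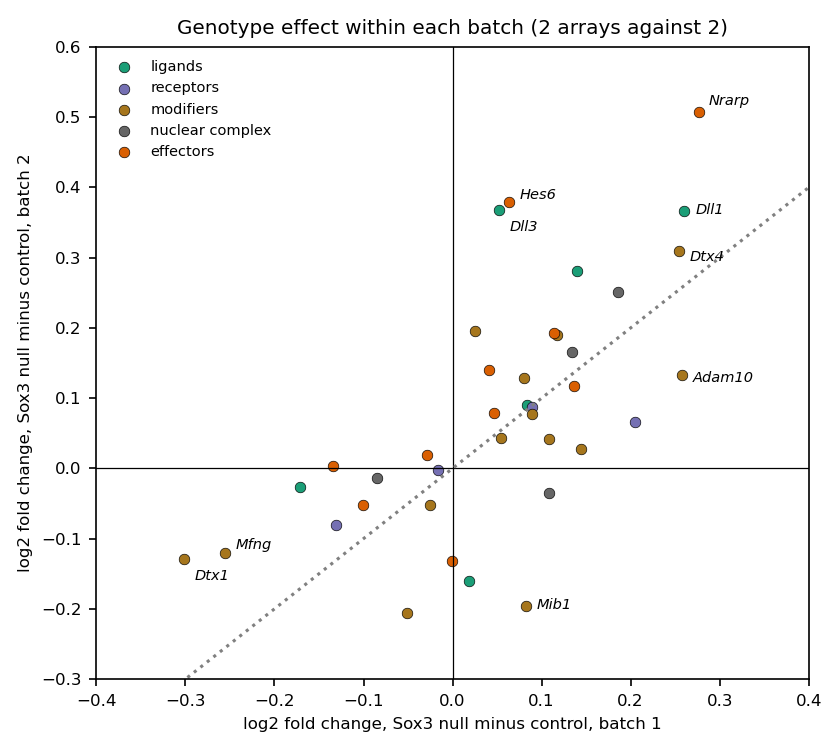
Log2 fold change (*Sox3* null minus control) of the 38 Notch genes in batch 1 (horizontal) and in batch 2 (vertical), each from 2 arrays against 2; the dotted line marks equal values. *Nrarp*, *Dll1* and *Dtx4* lie to the upper right in both, *Hes6* and *Dll3* near 0 in batch 1 and at 0.38 and 0.37 in batch 2.

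Between the differentiation series, more Notch genes passed the test than between the genotypes, 14 (36.8%) against 3. In batch 2, 12 of the 38 genes were lower (31.6%, where 9.35% of all named transcript clusters were lower) and 2 were higher (5.26%, where 10.9% of all were higher). Ordered by size, those that were lower were the receptor *Notch2*, *Maml3*, *Lfng*, *Jag1*, *Hey2*, *Maml1*, *Jag2*, *Hes5*, *Dtx4*, *Mfng*, *Psen2* and *Dll1*, and those that were higher were *Hes1* and *Adam17*. The median log2 difference, batch 2 minus batch 1, was −0.14 (0.003 over all), and 32 of the 38 values were below 0. The difference had the same sign in both genotypes for 33 genes. How often this held over all named transcript clusters was not counted, so it is not read as a trait of the Notch genes. As there were 2 series, the p-values measure the spread between cultures and not that between series.

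*Notch2* was 11.12 and 11.19 in the control cultures and 11.23 and 11.26 in the null cultures of batch 1, against 10.36 and 10.72 and 10.54 and 10.71 in those of batch 2. The batches did not overlap, and the difference was −0.62 in each genotype. Its log2 difference of −0.62 (95% interval −0.79 to −0.45, adjusted p = 0.000366, limma) was the only one of the 38 past a fold of 1.4, where 1.47% of all were lower and 1.03% higher by that rule. *Jag1* was 10.60 to 10.63 on the 4 arrays of batch 1 and 10.01 to 10.33 on those of batch 2, a difference of −0.43 (adjusted p = 0.00117).

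Of the others that were lower in batch 2, *Maml3* had −0.48, *Lfng* −0.45, *Hey2* −0.39, *Maml1* −0.36, *Jag2* −0.31, *Hes5* −0.27, *Dtx4* −0.27, *Mfng* −0.26, *Psen2* −0.22 and *Dll1* −0.22. *Hes1* went the other way, from 9.19 to 9.29 on the arrays of batch 1 to 9.33 to 9.65 on those of batch 2 (log2 difference 0.29, adjusted p = 0.0118, limma), so that *Hes1* and *Hes5* differed between batches in opposite directions. *Adam17* had 0.22 (adjusted p = 0.0163). Single arrays decided several of these calls. *Jag2* did not pass without control replicate 1, 2 or 3 or null replicate 2 or 3 (adjusted p of up to 0.109), with a value of −0.20 without control replicate 3. *Mfng* did not pass without control replicate 1 or 3 or null replicate 2 or 3 (up to 0.0876), *Psen2* without these or null replicate 4 (up to 0.0933), and *Adam17* without control replicate 1 or 3 (up to 0.0594). In the control arrays alone, and likewise in the null arrays alone, 5 of the 38 (13.2%) were lower in batch 2 and 0 higher at the same threshold. Of all named transcript clusters, 3.43% were lower and 2.89% higher in the control arrays alone, and 3.81% lower and 5.12% higher in the null arrays alone. All arrays of batch 2 lay below all of batch 1 for 7 genes, *Jag1*, *Notch2*, *Lfng*, *Psen2*, *Maml1*, *Maml3* and *Hey2* (18.4%, where 9.34% of all did so), and above them for 2, *Adam17* and *Hes1* (5.26%, where 11.7% of all did so). *Dll1* and *Dtx4* passed for both genotype and batch, being higher in null cells and lower in batch 2.

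**Figure D4:**
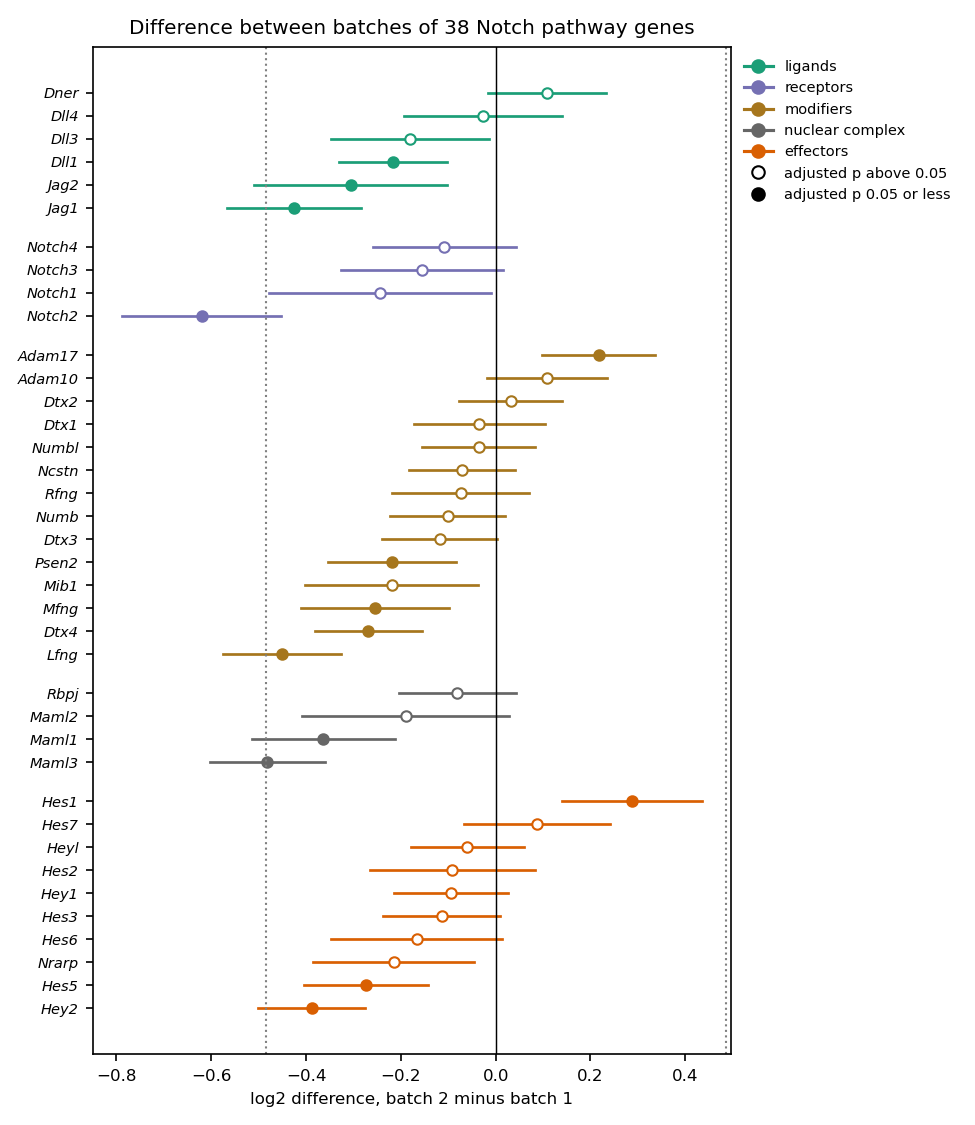
Log2 difference between the differentiation series (batch 2 minus batch 1) of each of the 38 Notch genes with its 95% interval, in a fit with genotype as the other term; dotted lines mark a fold of 1.4 and filled points an adjusted p no higher than 0.05. Most points lie left of 0, *Notch2* farthest at −0.62, and *Hes1* and *Adam17* are the filled points on the right.

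The wider pathway was read from a list of 30 further genes, of which 29 were measured: gamma-secretase partners, glycosyltransferases of the receptor, ligand ligases and co-repressors. None of the 29 passed for genotype, where 1.15% of all named transcript clusters rose and 0.393% fell. At an unadjusted p under 0.05 stood 1 higher and 1 lower, where 7.31% of all were higher and 5.8% lower. These were *Dlk1*, a non-canonical ligand, with 0.17 (adjusted p = 0.205), and the co-repressor *Tle2* with −0.12 (adjusted p = 0.367, limma). The median was 0.02, with 17 of 29 above 0 (58.6%, where 49.95% of all were). Between batches 3 of the 29 were higher and 5 lower in batch 2, where 10.9% of all were higher and 9.35% lower. *Tle3* was among those lower, with the smallest p (adjusted p = 0.000222, limma).

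Some markers of progenitors and of early neurons passed for genotype as well, where 1.15% of all named transcript clusters rose and 0.393% fell. Of 10 neural progenitor markers, 3 rose in null cells, *Sox9* (0.51), *Nes* (0.49) and *Zic1* (0.36), and *Otx2* fell (−0.47). Their mean log2 signal ran from 10.62 to 10.81 on control arrays and from 10.82 to 10.91 on null arrays. Of 12 proneural and early neuronal genes, 3 rose, *Nhlh1* (0.55), *Map2* (0.47) and *Neurod4* (0.32), and their mean ran from 8.35 to 8.46 on control and from 8.47 to 8.75 on null arrays. On neither list did the genotypes overlap, but they almost touched, and how often other lists of genes do so was not counted. The highest control and lowest null means were 10.815 and 10.817 for the progenitor markers, and 8.455 and 8.468 for the proneural and early neuronal genes. The mean of the 38 Notch genes was 9.23 and 9.18 on control and 9.24 and 9.27 on null arrays of batch 1, and 9.001 and 9.07 on control and 9.09 and 9.14 on null arrays of batch 2. Null arrays were the higher ones within each batch, and the genotypes overlapped only across batches. At an unadjusted p under 0.05 stood 6 progenitor markers higher and 2 lower, and 6 proneural and early neuronal genes higher and 1 lower. Of all named transcript clusters, 7.31% were higher and 5.8% lower at that p.

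Of the 9 pluripotency genes *Nanog* fell (−0.37), with 3 above 0 and a median of −0.10. Their mean ran from 9.12 to 9.37 on control and from 9.11 to 9.23 on null arrays. Of the 8 fibroblast markers *Thy1*, which neurons also express, fell (−0.51), while 4 lay above 0 and the median was 0.01. Their mean ran from 6.61 to 6.82 on control and from 6.46 to 6.71 on null arrays. On both lists the genotypes overlapped. At an unadjusted p under 0.05, 4 and 3 genes in that order were lower and 0 higher, where 5.8% of all were lower. Of all named transcript clusters, 0.393% fell by the adjusted p. None of 9 mesoderm and endoderm or 8 endothelial markers passed. The part of cell composition in the Notch values was not tested.

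**Figure D5:**
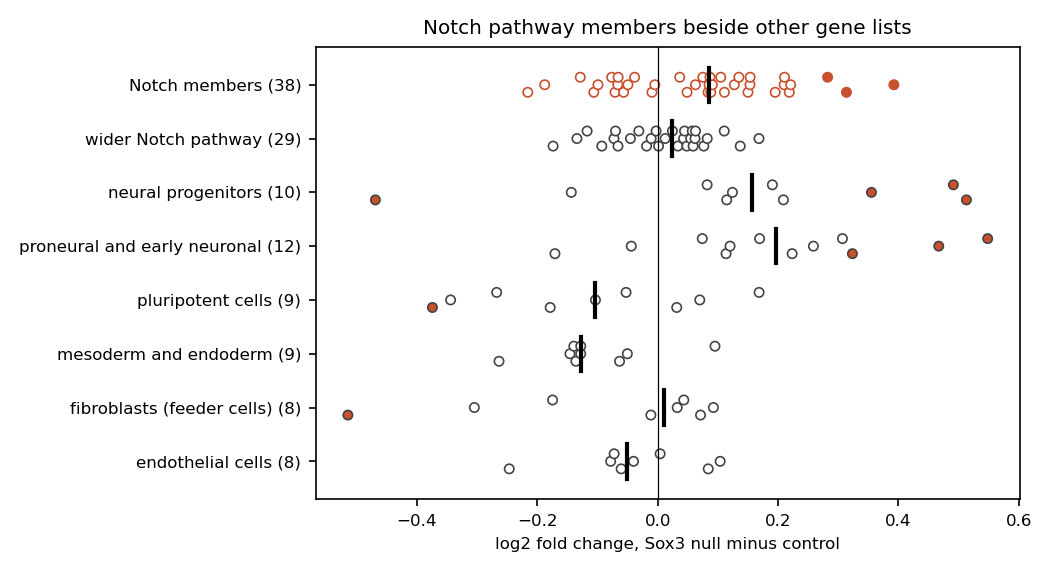
Log2 fold change (*Sox3* null minus control) of the 38 Notch genes and of the genes of 7 other lists, 1 point a gene, with the median of each list as a black bar and filled points where the adjusted p was 0.05 or lower; vertical offsets only separate points. The Notch genes have their median at 0.08, between those of the wider Notch pathway (0.02) and of the neural progenitor markers (0.16).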

How the data were processed

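RNA from 8 cultures was hybridised to Affymetrix Mouse Gene 1.0 ST arrays. The deposited values are log2 signals per transcript cluster, normalized and summarised by the authors; the submitters' processing notes name Partek, while its version, the normalization and the build were not stated in the labels or the paper. No column was left out (0). Of 35556 transcript clusters, 21789 had 1 symbol, 1621 several and 12146 none here; symbols were updated by gene ID through RefSeq (GRCm38.p6).

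A linear model with genotype and batch was fitted to the 23410 named transcript clusters by lmFit and eBayes of limma 3.58.1 (R 4.3.3), after the methods' ANOVA with batch as a factor. P-values are two-sided and were adjusted by Benjamini and Hochberg over all of them. Within-batch values and the genotype by batch term came from the means of the 4 genotype and batch groups. The brightest transcript cluster with 1 symbol stood for a gene. All members are named, with full statistics for those that passed and the next 4 by p, those that passed for batch by size, and up to 4 genes of each other list by p. *Sox3*, *Dll3*, *Hes5*, *Hes1* and *Hes6* were given more values than that rule after they had been seen. The members and lists were chosen with earlier results of these data known. Only the genotype fit was tested on simulated data, with planted changes larger than those of the Notch genes. In the paper the cultures are called biological replicates. The number of arrays limits the precision (median residual SD 0.0869). Replicate numbers mark the batch in the labels, and within a batch they were not used as pairs in the main fit. Deviations of same-numbered cultures correlated at −0.324 in batch 1 and 0.305 in batch 2. With 2 cultures per genotype in a batch, crossing the numbers only turns the sign, so these values cannot decide whether cultures were paired.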

Additional observations from a re-analysis of the deposited data

Results flagged for a closer look

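Within a genotype, the lowest or highest of 4 arrays stood apart from the others in 4 of 76 groups (38 genes, each in 2 genotypes), by the share of the group's range that its gap to the nearest array takes up. Chance gives about 1 in 20 groups where the 4 values come from a single normal distribution. Each group here held 2 arrays of each batch, so that rate need not apply. *Notch1* was 9.93 in control replicate 3, against 10.29 for the nearest array (share 0.899). *Ncstn* was 10.92 in control replicate 4, against 11.01 (share 0.901). *Numb* was 9.43 in control replicate 3, against 9.58 (share 0.863). *Dtx3* was 9.40 in null replicate 4, against 9.56 (share 0.895). None of these 4 genes passed the test for genotype or for batch.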

How the results depend on the processing

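All 38 Notch genes were refitted under each alternative but 1. The fit to transcript clusters at or above the median signal left out *Dll4*, *Dner*, *Notch4*, *Hes2*, *Hes7*, *Hey2* and *Heyl*. For genotype, 3 genes passed as higher with transcript clusters of 1 symbol, those at or above the median signal, an intensity trend, robust variances, renormalization, array weights or the mean of a gene's transcript clusters. With all transcript clusters tested the number was 0 (adjusted p = 0.0703 for *Dll1*), and it was 0 also without a term for batch, with a random block for batch, with a plain linear model, in batch 1 alone and in batch 2 alone. Leaving out arrays gave 0 to 2. None passed as lower or at a fold of 1.4 under any of these. With the replicate number as a block, 3 passed as higher; with the numbers of batch 1 crossed, a pairing chosen after seeing the data, 4 did, *Maml2* being added (adjusted p = 0.0473). For batch, 1 gene passed as higher with a plain linear model and 0 in control arrays alone or null arrays alone, where 5 and 5 passed as lower and 3 and 2 were past a fold of 1.4. Leaving out arrays gave 1 to 2 higher, 9 to 14 lower and 1 to 2 past that fold. With all transcript clusters tested or a plain linear model, 9 passed as lower, against 12 in the main fit, *Jag2*, *Mfng* and *Psen2* being lost. Renormalization gave 10, *Jag2* and *Psen2* being lost.

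Signs turned only where a gene had not passed for the comparison in question. For genotype, renormalization gave 0.011 for *Notch4* and 0.017 for *Hes2*, and array weights gave 0.00094 for *Hes2*. In batch 1 alone *Jag1* had 0.019 and *Mib1* 0.082. In batch 2 alone *Rbpj* had −0.035, *Hes2* 0.019 and *Heyl* 0.0033. With arrays left out, *Notch4* ran from −0.064 to 0.048, *Mib1* from −0.105 to 0.023, *Psen2* from −0.076 to 0.0019, *Hes1* from −0.0043 to 0.123 and *Hes2* from −0.059 to 0.059. For batch, renormalization gave 0.052 for *Dll4*, 0.0037 for *Dtx1* and 0.021 for *Heyl*. Control arrays alone gave 0.0034 for *Rfng*, and null arrays alone 0.045 for *Dll4*, 0.049 for *Numbl*, 0.052 for *Dtx1* and 0.0093 for *Heyl*. With arrays left out, *Dll4* ran from −0.082 to 0.058 and *Dtx1* from −0.083 to 0.015. The cause was not tested. *Dll4*, *Dner*, *Notch4*, *Hes2*, *Hes7*, *Hey2* and *Heyl* had signals below the median of named transcript clusters, and whether they stood above background could not be judged from these values.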
